A study of Rattus norvegicus with 31 samples.

Results

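The comparison described here set the intact striatum of hemiparkinsonian rats against the striatum of control rats, both taken after methamphetamine (METH). All 6 arrays of the intact side (MNL) and all 4 arrays of the control rats (MC) were used, 10 of the 31 arrays of the series, and the comparison covered the 9732 probes, of 22519 used, that were detected at a detection p under 0.01 on at least 4 of the 31 arrays. The animals were male Sprague Dawley rats, an outbred stock, and every RNA sample came from striatal tissue hybridised to an Illumina RatRef-12 BeadChip. MNL is the side opposite the injection in rats given 6-hydroxydopamine (6-OHDA), which destroys dopamine neurons, into the left medial forebrain bundle. MC striata came from rats that had no 6-OHDA injection. All these rats received METH at 2.5 mg/kg and were killed 2 h later. The saline-treated counterparts, used below for reference, are the intact side of lesioned rats (SNL, 5 arrays) and control rats (SC, 4 arrays).

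The lesioned rats had also been given apomorphine and METH in earlier rotation tests, and the methods do not give what the control rats received before the last injection. The lesion of the opposite hemisphere, the surgery and these earlier drug doses therefore cannot be told apart in this comparison. Neither the rat of origin of a striatum nor the side of a control striatum is stated, so that all p-values here reflect the spread from array to array, which may in part be technical. The titles of the control arrays carry a letter, a for MC replicates 5 and 13 and b for MC replicates 7 and 14, whose meaning is not stated. Between 8042 and 9445 probes were detected on an MNL array and between 8271 and 8911 on an MC array. Arrays with striatum numbers 1 to 12 detected 8730 to 9451 probes, those numbered 13 to 24 detected 8080 to 8579 and those numbered 25 to 32 detected 8042 to 8717; the first 2 spans hold 2 MNL and 2 MC arrays each, and the last holds 2 MNL and 0 MC arrays. The number of arrays limits the precision.

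Dopamine released by METH acts on medium spiny neurons, the output cells that make up most of the striatum. Drd1 receptors on the direct-pathway cells raise cAMP and start a wave of immediate-early gene transcription, in which factors such as Fos, Egr1 and Nr4a3 appear within an hour or so and then drive later targets. One nigrostriatal projection serves each hemisphere, so that the side opposite a unilateral 6-OHDA injection keeps its dopamine input and is often used as an internal control. Setting that side against striata of rats with no lesion, after the same METH dose, asks whether the intact side resembles a control striatum.

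Across the 9732 probes no difference between MNL and MC passed the threshold. The count at an adjusted p under 0.05 from limma was 0 (0% of the probes tested, smallest adjusted p 0.9999), and 181 probes (1.86%) had an unadjusted p under 0.05, 84 of them higher and 97 lower in MNL. The median log2 fold change was 0.00 and the median size of a fold change was 0.08 on the log2 scale, against a median standard error of 0.14. A missed threshold does not show equal levels, so the intervals matter more here. For 9274 probes (95.3%) the 95% confidence interval of MNL minus MC lay wholly within a 1.7-fold change in either direction, the size limit in the study's methods, and for 9551 (98.1%) it lay within 2-fold. These intervals, here and below, depend on the background correction for weak probes, and 7044 of the probes were detected on all 31 arrays. Adgre5, detected on 2 MNL and 0 MC arrays, gave 0.29, and 1.16 with a floor of 1 in place of that correction. For weak signals a narrow interval therefore says less about equal levels. At the methods' threshold, at least 1.7-fold with an unadjusted p under 0.025, 4 probes stood out (0.0411%), 1 higher and 3 lower in MNL. On 41 probes (0.421%) the MNL and MC arrays did not overlap, 24 with all MNL arrays above and 17 with all below. The plot of group means over all probes shows how close to the diagonal the probes lie.

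**Figure D1:**
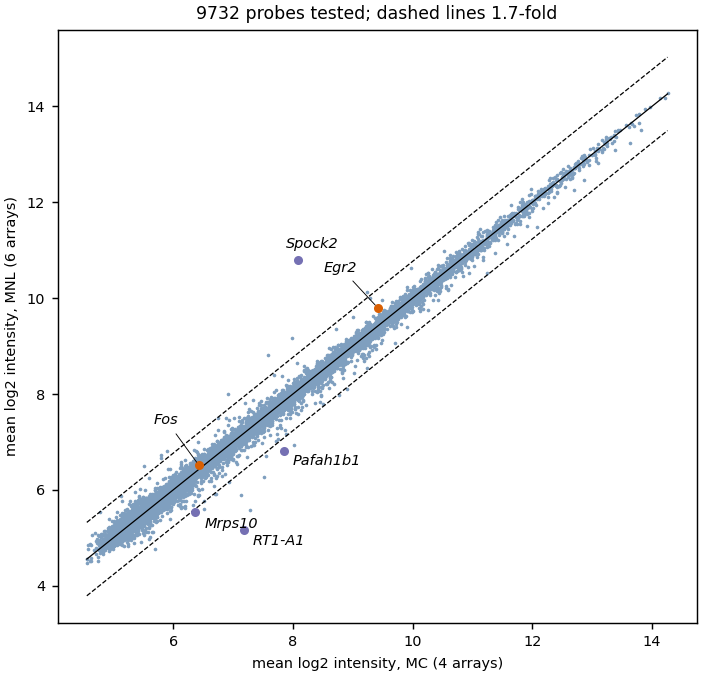
Mean log2 intensity of each of the 9732 probes tested, MC (mean of 4 arrays) on the x axis and MNL (mean of 6 arrays) on the y axis. The solid line marks equal levels and the dashed lines a 1.7-fold difference; 24 probes lie past 1.7-fold, and the 4 purple points (Spock2, RT1-A1, Pafah1b1 and Mrps10) are those at the methods' threshold, while Fos and Egr2 (orange) lie between the lines.

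Of the activity-regulated transcription factors also followed by qPCR, the 7 tested on the arrays differed between intact side and control striata by at most 0.39 on the log2 scale. None of them passed the threshold. The study's qPCR gave higher Egr2, Egr3 and Jund in MNL than in MC, and Egr3 and Jund could not be tested on the arrays. That qPCR was judged gene by gene with Fisher's PLSD at p under 0.05, on more measurements per group. The array threshold is adjusted over all probes tested, so missing it does not contradict the qPCR result for Egr2. Of the 13 factors on the qPCR list, 9 had a probe and 7 were tested. All 7 had positive values of MNL minus MC, with a median of 0.21 on the log2 scale (all probes tested: median 0.00, 50.3% positive), and 0 were called. Without MC replicate 14 the median was 0.28 and without MC replicate 5 it was 0.09, and between 4 and 7 of the 7 values were positive as arrays were left out in turn. The sequences just upstream of 3 activity-regulated genes are given first, as examples chosen because they hold a match to a motif known from such genes. They are the 250 bases before the start of transcription in assembly GRCr8, written 5′ to 3′, for Egr2 (chr20:21054442-21054691, minus strand), Dusp1 (chr10:17184603-17184852, plus strand) and Vgf (chr12:25277021-25277270, minus strand). Capitals mark a CArG box in Egr2, bound by serum response factor, and the cAMP response element TGACGTCA in Dusp1 and Vgf, bound by CREB.
Egr2: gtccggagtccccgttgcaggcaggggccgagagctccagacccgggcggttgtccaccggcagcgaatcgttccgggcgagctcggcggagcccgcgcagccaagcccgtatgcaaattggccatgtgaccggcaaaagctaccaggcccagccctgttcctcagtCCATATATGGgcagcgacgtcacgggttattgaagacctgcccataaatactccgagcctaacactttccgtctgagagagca
Dusp1: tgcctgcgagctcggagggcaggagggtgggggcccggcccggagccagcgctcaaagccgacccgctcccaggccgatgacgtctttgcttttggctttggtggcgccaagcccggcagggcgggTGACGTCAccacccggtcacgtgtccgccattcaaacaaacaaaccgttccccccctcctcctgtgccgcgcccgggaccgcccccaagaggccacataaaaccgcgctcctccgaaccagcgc
Vgf: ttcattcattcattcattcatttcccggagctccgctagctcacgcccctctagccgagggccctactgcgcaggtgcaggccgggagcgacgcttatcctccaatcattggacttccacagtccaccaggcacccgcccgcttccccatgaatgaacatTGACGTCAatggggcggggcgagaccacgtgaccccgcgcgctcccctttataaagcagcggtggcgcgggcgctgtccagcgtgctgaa
Searched on both strands, TGACGTCA occurs in 1.59% and the CArG box in 1.5% of the 33469 upstream windows of this length in the table. Because the 3 were chosen for a match, that share is no comparison with them. The windows of Junb, Egr4, Nr4a2, Pard6a and Rasl11a hold neither motif. A match is a description of the letters and not of a bound site.

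Egr2, an early growth response factor, read 8.75, 10.26, 8.58 and 10.07 (log2 intensity) on MC replicates 5, 7, 13 and 14, and on MNL arrays its lowest value was 9.29, the median 9.88 and the highest 10.32. The groups overlapped, and the 2 low MC arrays were those lettered a. Its MNL minus MC was 0.39 on the log2 scale (95% interval -0.19 to 0.96, adjusted p = 0.9999, limma), the largest of the 7 factors. Fos, the AP-1 subunit used most often as a mark of neuronal activation, had levels of 6.28, 6.73, 5.84 and 6.86 on the same MC arrays, while MNL ran from 6.14 through a median of 6.58 to 6.76. All 6 MNL values lay inside the MC range, and the difference was 0.09 (95% interval -0.32 to 0.51). Egr1, the zinc finger factor also called Zif268, was at 9.77, 10.72, 9.96 and 10.59 in MC and between 10.29 and 10.94 in MNL, with a median of 10.45 and a difference of 0.26 (95% interval -0.15 to 0.66). Here too the MC arrays lettered a lay below every MNL array and the pair lettered b did not.

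Nr4a3, the orphan nuclear receptor Nor-1, read 7.64, 8.87, 7.15 and 8.77 in MC, against 7.65 as the lowest, 8.24 as the median and 8.84 as the highest MNL value. The difference was 0.13 with a wide 95% interval, -0.50 to 0.77. Junb, another AP-1 subunit, differed by 0.02 (95% interval -0.42 to 0.45), and Jun, its partner, by 0.21 (95% interval -0.10 to 0.52). For Nr4a2 (Nurr1), also expressed in cortex, the SD was 0.95 in MNL and 0.61 in MC, and the difference of 0.30 had an interval of -0.70 to 1.29. Egr3 and Nr4a1 were detected on 0 arrays of the series, and no probe carries the name Fosb, Fosl1, Fosl2 or Jund, so that they were not analysed here.

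The saline arrays give a METH difference for each side of this comparison. MNL arrays enter both MNL minus MC and MNL minus SNL, and MC arrays enter both MNL minus MC and MC minus SC, so the values are set side by side without a test of their likeness. SNL arrays likewise enter both MNL minus SNL and SNL minus SC. Against SNL, 11 probes were higher in MNL at an adjusted p under 0.05 (0.113%), 10 of them named: Egr2, Egr4, Fos, Junb, Nr4a3, Klf10, Rasl11a, Arc, Egr1 and Pard6a. Against SC, 1 probe without a gene name was higher in MC (0.0103%). At an unadjusted p under 0.05 (limma) the order was the other one, 507 probes (5.21%) for MNL against SNL and 608 (6.25%) for MC against SC. The first comparison holds 6 and 5 arrays and the second 4 and 4. SNL replicate 19 and SC replicates 6 and 8a stood apart from the other arrays. The counts therefore do not measure which response was larger. Egr2 was 2.00 higher in MNL than in SNL and 1.17 higher in MC than in SC on the log2 scale. For Nr4a3 these values were 1.83 and 1.61, for Fos 1.45 and 1.14, and for Arc 1.55 and 0.72. Over the 11 probes MNL minus MC lay between 0.02 and 0.39, and 0 were called. SNL minus SC lay between -0.78 (Arc) and -0.03 for them, with 0 called. The 11 were chosen for high MNL and low SNL values, which favours these signs, so nothing is read from them.

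**Figure D2:**
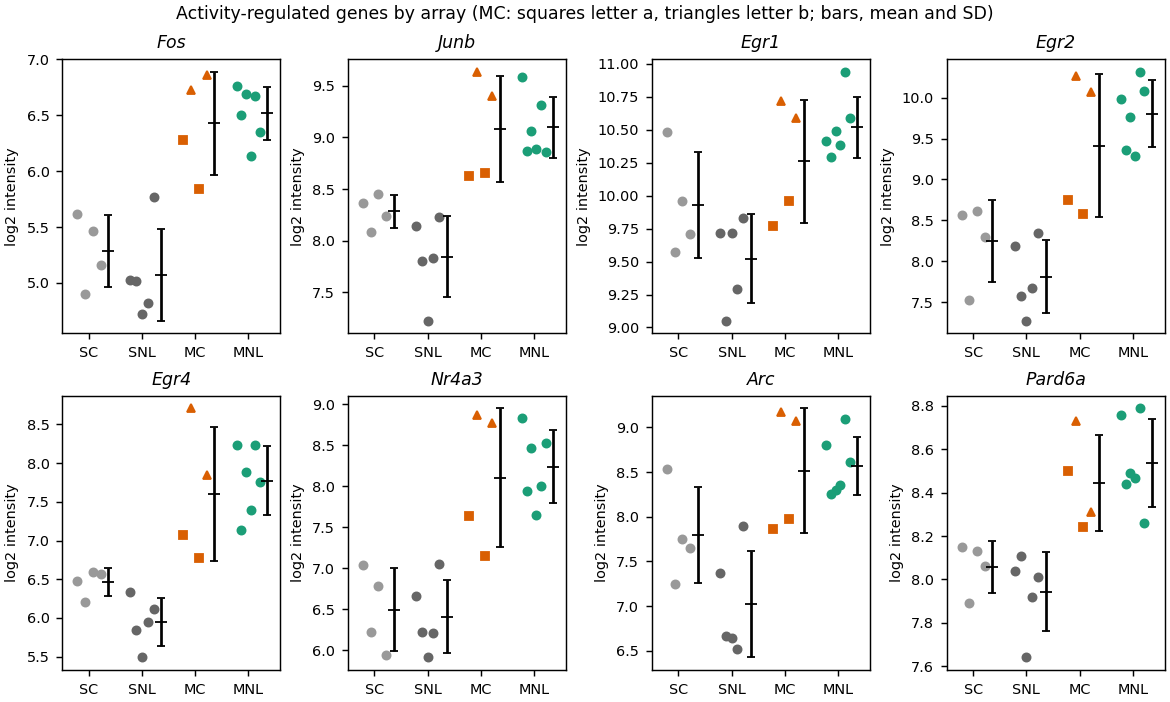
Log2 intensity (y axis) of 8 activity-regulated genes on each array of SC, SNL, MC and MNL (x axis); bars give the mean and SD of each group, and MC arrays are drawn as squares (letter a) or triangles (letter b). For Egr2 the MC squares sit at 8.58 and 8.75 and the triangles at 10.07 and 10.26, with the 6 MNL arrays between 9.29 and 10.32.

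Among the METH-treated control arrays the activity-regulated genes often divided by the letter in the titles. For 5 of the 7 qPCR factors (Fos, Junb, Egr1, Egr2 and Nr4a3) both MC arrays lettered b read higher than both lettered a, and for 19 of 39 other activity-regulated genes, against 22.9% of all probes tested. The median of b minus a was 0.79 on the log2 scale over the 7 factors, 0.25 over the 39 other genes and 0.00 over all probes. For Egr4, an early growth response factor, the MC levels were 7.07 and 6.78 (a) and 8.71 and 7.85 (b), and for Arc, a postsynaptic immediate-early gene, 7.86 and 7.97 (a) and 9.17 and 9.07 (b). Striatum numbers 1 to 12 and 13 to 24 hold 1 MC array of each letter. The saline control arrays carry the letters too, a for SC replicates 6, 8a and 15 and b for SC replicate 16. They cannot show whether saline arrays divide by letter, since only 1 is lettered b and SC replicates 6 and 8a stood apart from the other arrays. Nr4a3 read 5.94 on SC replicate 16 and 7.04, 6.22 and 6.78 on the others, and Egr2 8.30 against 8.56, 7.52 and 8.61. The division of the MC arrays was noticed after the values were seen, with 2 arrays a letter, and is given without a test.

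Against the MC arrays lettered a alone, the 7 factors had a median MNL minus MC of 0.46, and against those lettered b alone of -0.28. Egr2 was 1.14 higher in MNL than in the MC arrays lettered a, whereas its value against those lettered b was -0.36. The letters were followed because these genes divided by them, so the gene values are given without a test. The limma fits against a alone and b alone each called 0 probes at an adjusted p under 0.05. They had 262 and 312 probes at an unadjusted p under 0.05. Fos, Junb, Egr1, Egr2 and Nr4a3 each had a positive value of MNL minus MC against the arrays lettered a and a negative one against those lettered b, whereas Jun was positive against both, at 0.16 and 0.26, and Nr4a2 gave -0.19 against a and 0.79 against b. Other lists moved with the letter as well: over 22 genes of medium spiny neuron signalling the b arrays averaged 10.38 and 10.33 and the a arrays 10.11 and 10.12, and over 16 myelin genes b averaged 9.43 and 9.54 and a averaged 9.57 and 9.82. The part of tissue makeup in the letter pattern was not tested.

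Beyond the transcription factors, the activity-regulated genes gave small values of both signs. Of 39 other genes of this kind tested, 28 had positive and 11 negative MNL minus MC, with a median of 0.07 on the log2 scale and 0 called; without MC replicate 13 the median was -0.01. Klf10, a Krüppel-like factor, was 0.22 higher in MNL (95% interval -0.15 to 0.60). Vgf, the precursor of secreted neuropeptides whose promoter is printed above, gave 0.38 (95% interval 0.01 to 0.75, unadjusted p = 0.0438, limma). That p was the smallest among the genes plotted with their intervals below, which leave out some genes that the study names. On MC replicates 5, 7, 13 and 14 Vgf read 5.26, 5.75, 5.15 and 5.46, and in MNL it ran from 5.39 to 6.09 with a median of 5.84. The groups overlapped, and Vgf was detected on 3 of the 4 MC arrays. Dusp1, the phosphatase that switches off MAP kinases and the second promoter above, differed by 0.00 (95% interval -0.45 to 0.45). Cebpb, a bZIP factor, lay lower in MNL at -0.43 (95% interval -0.83 to -0.03).

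For Ptgs2, the inducible prostaglandin synthase COX-2, MNL minus MC was 0.00 (95% interval -0.58 to 0.58). The signalling brakes Rgs2, a regulator of G proteins, and Sik1, a kinase induced by cAMP, differed by 0.08 and -0.06. Cflar, an inhibitor of caspase-8, did not overlap between the groups: MC replicates read 7.92, 7.92, 7.84 and 7.87, and the MNL arrays ran from 8.06 through 8.17 to 8.39. Its difference was 0.30 (95% interval -0.08 to 0.69) and was not called. Abcg2, an efflux transporter of the blood-brain barrier, was at 7.42, 7.80, 8.18 and 7.48 in MC and from 5.99 through 7.25 to 7.92 in MNL, a difference of -0.71 (95% interval -1.43 to 0.02). Within striatum numbers 1 to 12 it was -0.01 and within 13 to 24 it was -1.23. P2ry1, a purine receptor, gave -0.39 (95% interval -0.80 to 0.02).

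**Figure D3:**
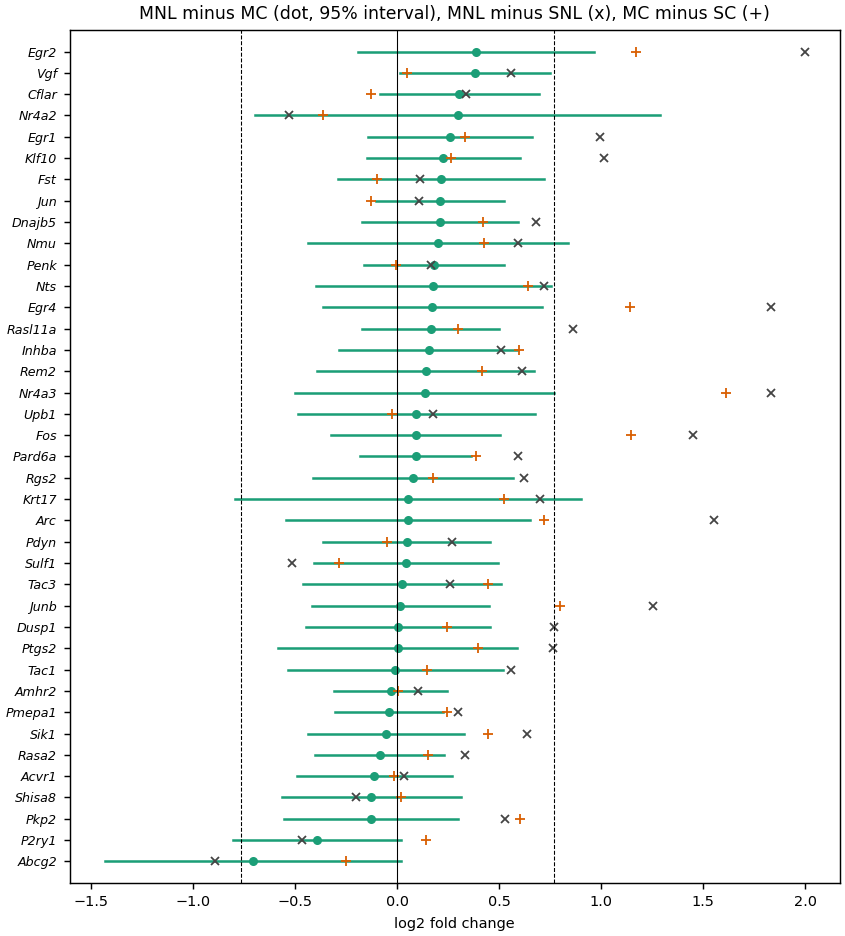
MNL minus MC as a log2 fold change (x axis, dots) with its 95% interval for 39 genes (y axis), beside MNL minus SNL (x) and MC minus SC (+). Most are genes that the study names. Others, among them Arc, Pard6a, Krt17, Shisa8 and Pmepa1, were added with earlier results of these data known. Dashed lines mark 1.7-fold. Every MNL minus MC interval but that of Vgf crosses 0, and for Egr2, Nr4a3 and Fos the dots (0.39, 0.13 and 0.09) lie far left of the METH values.

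Neuropeptide genes, through which the spiny neurons of each pathway are usually told apart, had no called member, and for 18 of 25 tested the 95% interval lay within 1.7-fold. Penk, the enkephalin precursor of the indirect pathway, read 12.42, 12.74, 12.35 and 12.57 in MC and from 12.22 through 12.72 to 12.97 in MNL, a difference of 0.18 (95% interval -0.16 to 0.52). Tac1, the substance P precursor of the direct pathway, differed by -0.01 (95% interval -0.53 to 0.52) and Pdyn, the dynorphin precursor, by 0.05 (95% interval -0.37 to 0.46). The groups overlapped for each of these. Nts (neurotensin), Nmu (neuromedin U) and Tac3 (neurokinin B) gave 0.18 (95% interval -0.40 to 0.75), 0.20 (95% interval -0.44 to 0.84) and 0.02 (95% interval -0.46 to 0.51). Of the 25 neuropeptide and processing genes, 19 were positive and 6 negative, with a median of 0.09 and a range from -0.41 to 0.64. Activin and TGF-beta signalling, in which the study names Fst (follistatin, at 0.21), Inhba (the activin A subunit, at 0.15) and the receptor Acvr1 (at -0.11), had 7 positive and 10 negative genes of 17 and a median of -0.02. All 17 of these genes had intervals within 1.7-fold.

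Receptors and spiny neuron genes differed little between the group means, and 1 MNL array stood apart. Drd1, the receptor of the direct pathway, differed by -0.11 (95% interval -0.61 to 0.38), Drd2, that of the indirect pathway, by -0.03 (95% interval -0.35 to 0.29) and Adora2a, the adenosine receptor beside Drd2, by 0.00 (95% interval -0.35 to 0.34). Over 22 signalling genes of these neurons, all detected on each of the 10 arrays, the median was -0.05. MNL replicate 9 averaged 9.70 over these 22 genes, against 10.24 to 10.37 on the other MNL arrays and 10.11 to 10.38 in MC. Its 7 cortical neuron markers averaged 7.58, against 6.63 to 7.05 on the other MNL arrays and 6.60 to 7.04 in MC. Neurod6, a factor of cortical pyramidal neurons, read 7.75 there and from 5.17 to 7.25 elsewhere in these 2 groups. Over the 7 cortical markers MNL minus MC had a median of 0.26, with 5 positive and 0 called. That median was 0.12 without MNL replicate 9 and 0.35 without MC replicate 13, the lowest and highest as arrays were left out in turn. Without MNL replicate 9 the median over the 22 genes became 0.05 and 17 of them were positive instead of 7, while 0 probes were called over all. Bulk tissue cannot separate fewer cells of a type from less RNA per cell.

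**Figure D4:**
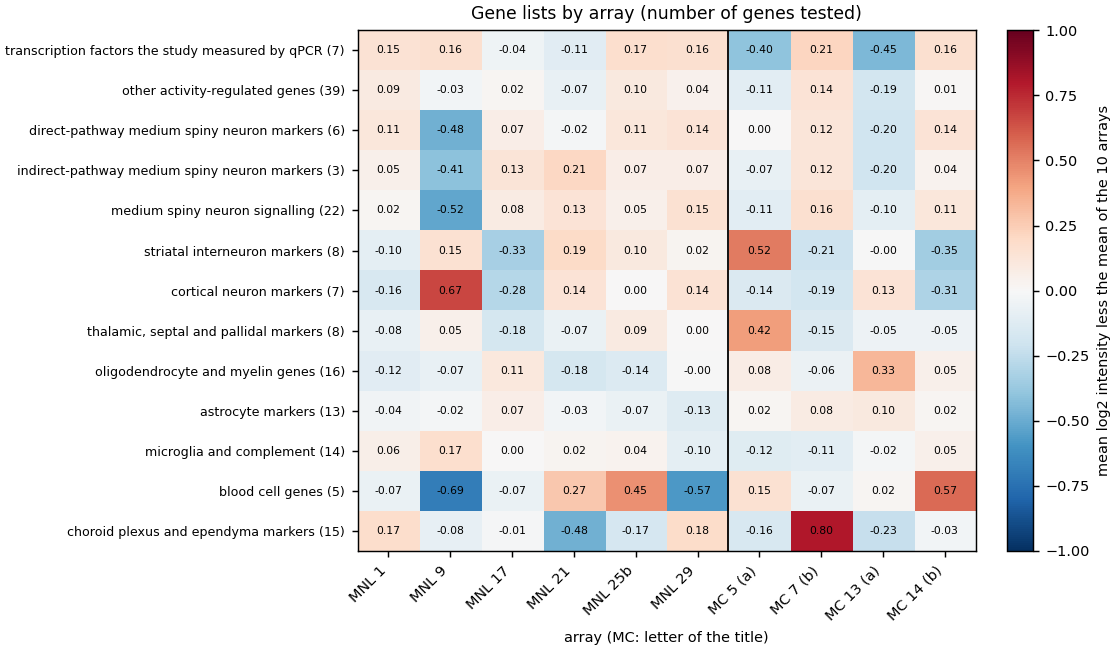
Mean log2 intensity of 13 gene lists (rows, with the number of genes tested) on each MNL and MC array (columns, MC with its title letter), less the mean of the 10 arrays. MNL replicate 9 lies lowest for the 3 medium spiny neuron lists and highest for the cortical markers, and MC replicates 5 and 13 lie lowest for the qPCR transcription factors.

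Markers of other cells were compared in the same way, as whole lists. Of 16 oligodendrocyte and myelin genes 13 were lower in MNL, with a median of -0.18 and the log2 of their summed levels between 14.4 and 14.6 in MNL and between 14.5 and 14.9 in MC. Mobp, a myelin protein, was the member with the smallest p, at -0.41 (95% interval -0.76 to -0.06), and MC replicate 13 read highest for it at 12.34. Without that array the list's median was -0.08. Of 13 astrocyte markers 9 were negative with a median of -0.10 (-0.054 without MC replicate 7), Slc1a3, the glial glutamate transporter GLAST, at -0.59 (95% interval -1.09 to -0.09) and Gfap at 0.28 (95% interval -0.19 to 0.75). Of 14 microglia and complement genes 11 were positive, with a median of 0.09, which was 0.044 without MC replicate 5 and 0.054 without MNL replicate 9.

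All 5 blood cell genes tested were lower in MNL, with a median of -0.365, and Hba-a1 and Hbb, the haemoglobin chains, gave -0.44 (95% interval -1.17 to 0.28) and -0.40 (95% interval -1.09 to 0.29). Without MNL replicate 9 the list's median was -0.201 and without MC replicate 14 it was -0.222, each with 1 of the 5 genes positive. Their summed level ran from 12.9 to 14.5 in MNL and from 13.7 to 14.3 in MC. Choroid plexus markers varied with single arrays. Ttr (transthyretin) read 11.21 on MC replicate 7, 9.86 on MNL replicate 29 and between 6.79 and 8.39 on the other 8. Of 15 genes of that list 11 were negative, with a median of -0.10, and without MC replicate 7 the median was 0.09. Of 8 dopamine neuron genes listed 1 was tested, Aldh1a1 (at -0.03), which other cells also express. None of these lists had a called member.

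Housekeeping and stress lists had medians between -0.16 and 0.08 on the log2 scale. Proteasome subunits were positive in 32 of 37 cases (median 0.08), with Psmb8, an immunoproteasome subunit, at 0.45 (95% interval 0.08 to 0.81). Ribosomal protein genes were positive in 43 of 60 (median 0.055) and oxidative phosphorylation subunits in 36 of 53 (median 0.03). The ribosomal median was 0.028 without MC replicate 5 and 0.091 without MC replicate 14, and the oxidative phosphorylation median was 0.059 without MC replicate 5, 0.058 without MNL replicate 9, 0.016 without MC replicate 14 and 0.018 without MNL replicate 25b. Heat shock proteins and chaperones were negative in 22 of 24 (median -0.07), in 16 of 24 without MC replicate 14 and in 17 of 24 without MC replicate 7 (median -0.042), with Hspb1, a small heat shock protein, at -0.40 (95% interval -0.99 to 0.18). Glucocorticoid-induced genes were negative in 12 of 14 with a median of -0.16. In that list Klf9, a glucocorticoid receptor target, gave -0.30 (95% interval -0.57 to -0.02), Fkbp5, a receptor co-chaperone, -0.24, and Ddit4, a stress-induced inhibitor of mTOR, 0.56 (95% interval -0.11 to 1.22). Without MC replicate 13 the median of these 14 genes was -0.08. All probes had a median of 0.00, and genes of a list are not independent of each other.

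The probes with the smallest p did not pass the adjustment, and are given as the nearest candidates. Slc38a5, an amino acid transporter for glutamine and serine, had the smallest of all, an unadjusted p of 0.000104 with limma. Its level was 5.31, 5.78, 5.45 and 5.85 on MC replicates 5, 7, 13 and 14 and from 6.10 through 6.19 to 6.42 in MNL, so that all MNL arrays lay above all MC arrays, at 0.64 (standard error 0.14, 95% interval 0.35 to 0.94, adjusted p = 0.9999). The difference was 0.70 within striatum numbers 1 to 12 and 0.63 within 13 to 24, and with groups that do not overlap its sign could not turn. Slc38a5 was 0.86 higher than the MC arrays lettered a and 0.42 higher than those lettered b. Its SNL minus SC was 0.21, its MNL minus SNL 0.04 and its MC minus SC -0.39, so that MNL read near SNL while MC read below SC. Slc7a5, the large neutral amino acid transporter LAT1 of the blood-brain barrier, was 0.44 higher in MNL (95% interval 0.12 to 0.75), and Sirt4, a mitochondrial sirtuin, 0.40 higher (95% interval 0.16 to 0.63). For Sirt4 the value was 0.15 against the MC arrays lettered a and 0.65 against those lettered b. Its MNL minus SNL was -0.01 and its MC minus SC -0.27.

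In the other direction stood Grm5, the metabotropic glutamate receptor mGluR5 of spiny neurons. It read 6.32, 6.94, 5.94 and 6.85 in MC and from 5.57 through 5.67 to 6.21 in MNL, with an overlap by MC replicate 13, at -0.74 (95% interval -1.20 to -0.28, unadjusted p = 0.00258, adjusted p = 0.9999, limma). SNL minus SC was 0.33. Against the MC arrays lettered a alone Grm5 gave -0.35 and against those lettered b -1.12. Ltc4s, the synthase of leukotriene C4, was at -0.58 (95% interval -0.96 to -0.20). Slitrk6, a synaptic adhesion protein, and Ly6g6e did not overlap between the groups and gave -0.41 (95% interval -0.68 to -0.14) and -0.39 (95% interval -0.64 to -0.13). Ly6g6e was weak, detected on 2 of the 6 MNL and all 4 MC arrays. Its MNL minus SNL was -0.06 and its MC minus SC 0.58. Ndufa10l1 and Ndufa10, near-identical copies of a complex I subunit whose probes may read each other's transcripts, gave -0.45 and -0.21.

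The probes at the methods' threshold were Spock2, higher in MNL, and RT1-A1, Pafah1b1 and Mrps10, lower in MNL. Spock2, a matrix proteoglycan, read 5.35, 5.02, 10.99 and 10.95 on MC replicates 5, 7, 13 and 14 and from 10.09 through 10.98 to 11.40 in MNL, which gave 2.71 with a 95% interval of 0.67 to 4.76. The difference was 6.06 within striatum numbers 1 to 12 and 0.01 within 13 to 24. RT1-A1, a classical MHC class I gene, was detected on all 4 MC arrays (6.35, 7.88, 7.39 and 7.09) and on 1 of 6 MNL arrays, where MNL replicate 21 read 6.98 and the others at most 4.88. Among the saline arrays RT1-A1 was also high on SC replicate 16 (7.88) and SNL replicate 3 (6.79), and between 4.64 and 5.14 on the other SC and SNL arrays. Its MNL minus MC was -2.02 (95% interval -3.35 to -0.70), and that of RT1-A2, a related class I gene, 0.92 (95% interval 0.06 to 1.77). Class I genes are close copies of each other, so that a probe's transcript is uncertain. Pafah1b1 (LIS1, a dynein regulator) was low on MNL replicates 1 and 29 at 5.62 and 5.58 and between 7.05 and 8.06 on the other 8 arrays, at -1.04 (95% interval -1.87 to -0.21). Mrps10, a mitochondrial ribosomal protein, ran from 5.87 to 6.78 in MC and from 5.24 to 6.00 in MNL, at -0.82 (95% interval -1.31 to -0.32).

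Probes that, like Spock2, had separate high and low levels were then sought over all 31 arrays. With a gap of at least 1 on the log2 scale that was at least 5 times the SD within the levels, and at least 2 arrays on each level, 14 probes had 2 separate levels, Spock2 among them, while 8 further ones only set apart SNL replicate 19, SC replicate 6 and SC replicate 8a. Spock2 was low on 4 of the 8 control arrays and on none of the 23 arrays of lesioned rats. Those 23 arrays hold both sides of lesioned rats, so they are not taken as 23 separate rats. Spock2 was also named for its high values in MNL against MC, so nothing is read from this contrast. Washc3, part of an actin regulator on endosomes, was high on MNL replicate 9 and MC replicate 14 alone among the 10 arrays, and Mrpl18, a mitochondrial ribosomal protein, on MNL replicate 9 alone. In lesioned rats most neighbouring striatum numbers shared their pattern: MNL replicates 1, 9, 17, 21 and 29 matched ML replicates 2, 10, 18, 22 and 30 of the lesioned side on all 14 probes, whereas MNL replicate 25b and ML replicate 26 differed on 5. Neighbouring numbers of control rats did not match, MC replicate 5 and SC replicate 6 differing on 6 probes, MC replicate 7 and SC replicate 8a on 7, MC replicates 13 and 14 on 4 and SC replicates 15 and 16 on 6. The 4 MC arrays differed from each other on 4 to 7 of the 14 probes in all 6 pairs. The cause of the 2 levels was not tested.

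**Figure D5:**
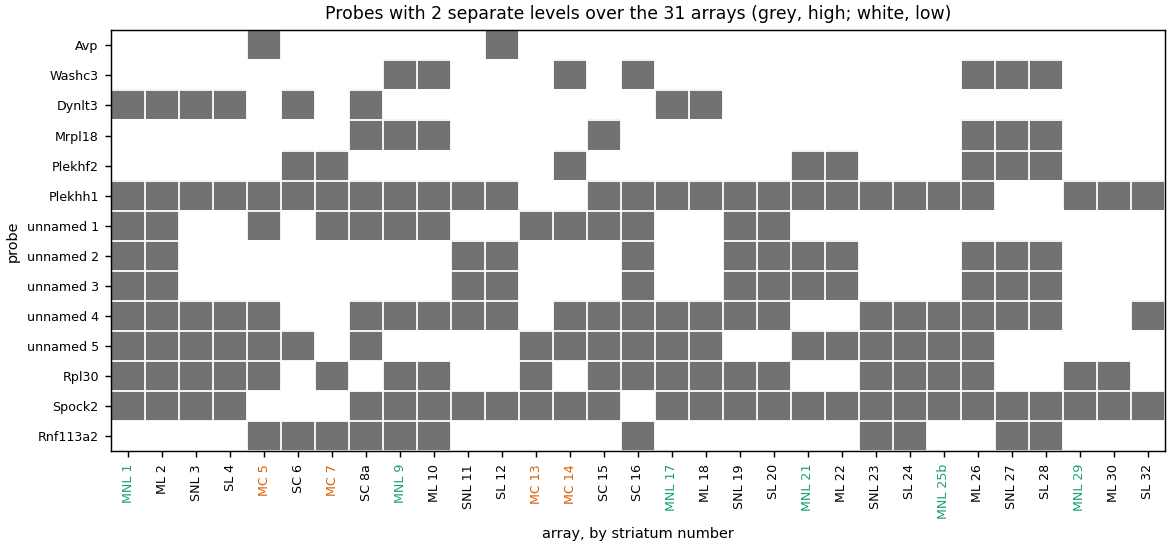
Level (grey, high; white, low) of 14 probes (rows) with 2 separate levels over the 31 arrays (columns, in order of striatum number; MNL in green and MC in orange). MNL replicate 1 and ML replicate 2 show the same column, as do 4 further MNL and ML pairs, and Spock2 is low on MC replicates 5 and 7 only within MNL and MC.

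Whether the difference between intact side and control striata was another one after METH than after saline was asked with 1 contrast, (MNL minus MC) less (SNL minus SC). It called 0 of 9732 probes (0%, smallest adjusted p 0.9994, limma), with 164 at an unadjusted p under 0.05. Its standard error was larger, with a median of 0.20, and 7967 probes (81.9%) had intervals within 1.7-fold. RT1-A1 gave -1.85 (95% interval -3.76 to 0.06). Grm5 gave -1.07 (95% interval -1.73 to -0.41, unadjusted p = 0.00244), Arc 0.83 (95% interval -0.03 to 1.69), Egr2 0.83 (95% interval -0.0047 to 1.66), Klf10 0.75 (95% interval 0.21 to 1.29) and Egr1 0.66 (95% interval 0.08 to 1.24). None of them passed the adjustment. Arc, Egr2, Klf10 and Egr1 were among the probes called for high MNL minus SNL, and RT1-A1 and Grm5 were named for low MNL minus MC. Both differences enter this contrast, which favours these signs, so nothing is read from them. The saline groups hold the 3 arrays that stood apart on the first principal component (20.5% of the variance), SNL replicate 19 and SC replicates 6 and 8a. Without them the contrast also called 0 probes.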

How the data were processed

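RNA of 31 rat striata was measured on Illumina BeadChips, 1 array each. The authors deposited background-subtracted signal intensity values made with BeadStudio, named in the submitters' processing notes, and not normalized between arrays, together with a detection p-value per probe. They also deposited a log2 table, which by comparison is the log2 of the signal floored at 1 less a constant of the probe (largest deviation 0.012 over 30 arrays). The signals of ML replicate 22 and SL replicate 32, arrays of lesioned sides, stood 4 rows off the probe names and were moved back; 4 probes were left out. The column of ML replicate 22 in the log2 table holds detection values and was not used.

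Signals were corrected and quantile normalized with neqc (limma 3.58.1, R 4.3.3, offset 16) and fitted as 6 group means over all arrays with lmFit and eBayes. P-values were adjusted by Benjamini-Hochberg over 9732 probes. Of the probes, 13793 have 1 symbol and 8730 none; a gene is read by its brightest probe. The fit was tested on simulated data. Genes were named by smallest p, as genes the study names or genes added to these, or as up to 4 members of a list by p. Others were chosen after their values were seen. The groups, gene lists and tests were chosen with earlier results of these data known. Alternatives covered background, normalization, filter, samples, weights, striatum number, the methods' t-test and each array left out. Figures used Python 3.11.15 with matplotlib 3.10.9.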

Additional observations from a re-analysis of the deposited data

Results flagged for a closer look

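Of 184 sets of arrays (92 genes in MNL and in MC), 15 had 1 array far from the rest of its group, which chance gives in about 1 of 20 sets. Of the 10 in MNL, 7 were set by MNL replicate 9, always low: Tac1 (11.03, next 11.90), Adora2a (12.34, next 12.84), Trh, the thyrotropin-releasing hormone precursor (5.65, next 6.45), Nmu (5.79, next 6.90), Krt17, a keratin (5.00, next 6.76), Rem2, a GTPase of calcium channels (6.07, next 6.77), and Rtfdc1 (7.05, next 7.24), all as log2 intensities. MNL replicate 1 was low for Mau2, the cohesin loader (6.04, next 6.47), and for Cat, catalase (6.61, next 7.15). RT1-A1 was high on MNL replicate 21 (6.98, next 4.88). In MC, replicate 5 was low for Cdc16 (8.00, next 8.12) and high for Slitrk6 (6.98, next 6.73), replicate 14 was low for Wdr24 (5.12, next 5.43) and Klf9 (11.97, next 12.23), and replicate 13 was low for Nts (7.63, next 8.59).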

How the results depend on the processing

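No probe was called in MNL against MC under any of 27 alternatives, and none in the difference of differences under those run for it. The smallest adjusted p in MNL against MC was 0.0884, with array weights, for Slc38a5, and the probes at an unadjusted p under 0.05 ran from 77 (median scaling) to 723 (all 22519 probes tested). The 4 probes at the methods' threshold became 17 with a floor of 1 in place of background correction, 16 with the deposited log2 table, 11 with array weights, 10 with a term for striatum numbers above 16, 9 with only the MNL and MC arrays, 7 with neighbouring striatum numbers as a random block, 2 with the methods' t-test (266 at an unadjusted p under 0.05, 0 after Benjamini-Hochberg) and 1 among probes detected on all 31 arrays. Leaving out 1 array at a time gave between 3 and 11, 9 without MNL replicate 1, 11 without MNL replicate 9, 7 without MNL replicate 21, 8 without MC replicate 13 and 9 without MC replicate 14. In alternatives added after seeing the data, it was 13 with only the MC arrays lettered a and 17 with only those lettered b. The cause of these shifts was not tested. Of 60 genes followed, 0 of 1540 values passed the threshold and 119 had the other sign, and 30 genes kept their sign throughout. The 60 include the genes chosen for a small p or the methods' threshold in this same comparison. That choice favours a kept sign, so the 30 are no measure of robustness. No paired analysis applies to MNL against MC, because the striata of these groups came from different rats. Signals near background and the number of arrays limit small differences.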
